A study of Mus musculus with 6 samples.

Results

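Small RNA libraries of mouse liver held counts of several miRNAs that are best known from other tissues. Described here are 8 mature miRNAs known from neurons or from the endocrine cells of the pancreatic islet: miR-137-3p, miR-137-5p, miR-375-3p, miR-7a-5p, miR-9-5p, miR-9-3p, miR-124-3p and miR-128-3p. They were taken by name from the 1907 distinct miRNAs of the deposited table, where all 8 were found. The set was chosen by what is known of these miRNAs and by the measured level of miR-137-3p, which was high in these libraries, so the levels are a description and not a finding. The libraries came from healthy liver of C57BL/6N mice aged 12 weeks, littermates on a chow diet, 3 females and 3 males. The labels record no transgene and no treatment. The series concerns SAB, a mitochondrial outer membrane protein, and an acute liver injury whose severity differs by sex, and the design allows a comparison of female with male liver before injury.

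Female libraries held 3285249 to 5756418 counts and male libraries 4617647 to 16444674. Levels are given as CPM, the counts for every 1000000 of a library's size after adjustment with TMM, a scaling that sets the bulk of the miRNAs equal between libraries. A single count stood for 0.0635 to 0.285 CPM. The labels give the tissue as liver. The hepatocyte miRNA miR-122-5p made up 32.5 to 33.8% of the counts in female libraries and 33.8 to 35.5% in male libraries. Titles number the males first and the females last, so any effect of handling order and of sex cannot be told apart.

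A miRNA is cut from a hairpin precursor by Drosha and Dicer, and of the 5′ and 3′ arms of the hairpin usually the arm loaded into Argonaute is kept. Bases 2 to 8, the seed, pair with target mRNAs. In the nervous system miR-124 is the abundant miRNA of mature neurons, miR-9 acts in neural progenitors and neuron formation, miR-137 in neuron maturation and synapses, and miR-128 in neuronal excitability. In the islet miR-375 controls insulin secretion and endocrine cell mass, and miR-7 is enriched in islet endocrine cells and in the brain.

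RefSeq (GRCm38.p6, the mm10 assembly) held a mature sequence for 6 of the 8. These are shown 5′ to 3′ with the seed in capitals, because the seed says which of them could share targets and the rest of the sequence how easily their reads could be mistaken for those of another miRNA. No sequence is shown for miR-375-3p and miR-124-3p.
miR-137-3p: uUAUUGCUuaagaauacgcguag
miR-137-5p: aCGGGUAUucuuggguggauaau
miR-7a-5p: uGGAAGACuagugauuuuguugu
miR-9-5p: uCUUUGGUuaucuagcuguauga
miR-9-3p: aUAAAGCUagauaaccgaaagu
miR-128-3p: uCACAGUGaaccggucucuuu
The 6 seeds were all different. Among RefSeq mouse miRNAs, miR-7b-5p shared the seed of miR-7a-5p, and no other miRNA had the seed of miR-137-3p, miR-137-5p, miR-9-5p, miR-9-3p or miR-128-3p. The nearest other mature sequence to miR-137-3p was miR-3066-5p, at 8 edits (bases changed, added or removed). For miR-128-3p the nearest was miR-139-5p at 7 edits, for miR-9-5p miR-9b-5p at 4 and for miR-9-3p miR-9b-3p at 3. The closest pair was miR-7a-5p and miR-7b-5p at 2 edits, which is described with the miR-7 counts.

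The 8 miRNAs spanned the whole range from the well counted to the absent. By mean over the 6 libraries the order was miR-7a-5p at 1249 ± 114 CPM, miR-137-3p at 376 ± 118, miR-128-3p at 97.0 ± 7.52, miR-9-5p at 5.47 ± 2.46, miR-375-3p at 2.39 ± 1.40, miR-9-3p at 0.554 ± 0.482, miR-137-5p at 0.373 ± 0.221 and miR-124-3p at 0 (SD, n = 6). The mature forms are 20 to 23 nt long in the table, and the order per nucleotide was the same. Each of miR-7a-5p, miR-137-3p and miR-128-3p lay above the next in every library, with ranges that did not touch. From miR-9-5p down, the range of each miRNA overlapped that of its neighbour: miR-9-5p ran from 2.85 to 9.68 CPM and miR-375-3p from 1.18 to 4.79 CPM. Together miR-7a-5p and miR-137-3p made up 93.3 to 94.8% of the summed level of the 8, which was 1644 to 1891 CPM in female libraries and 1626 to 1791 CPM in male libraries. In these bulk samples, fewer cells of a type and less RNA per cell cannot be told apart.

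**Figure D1:**
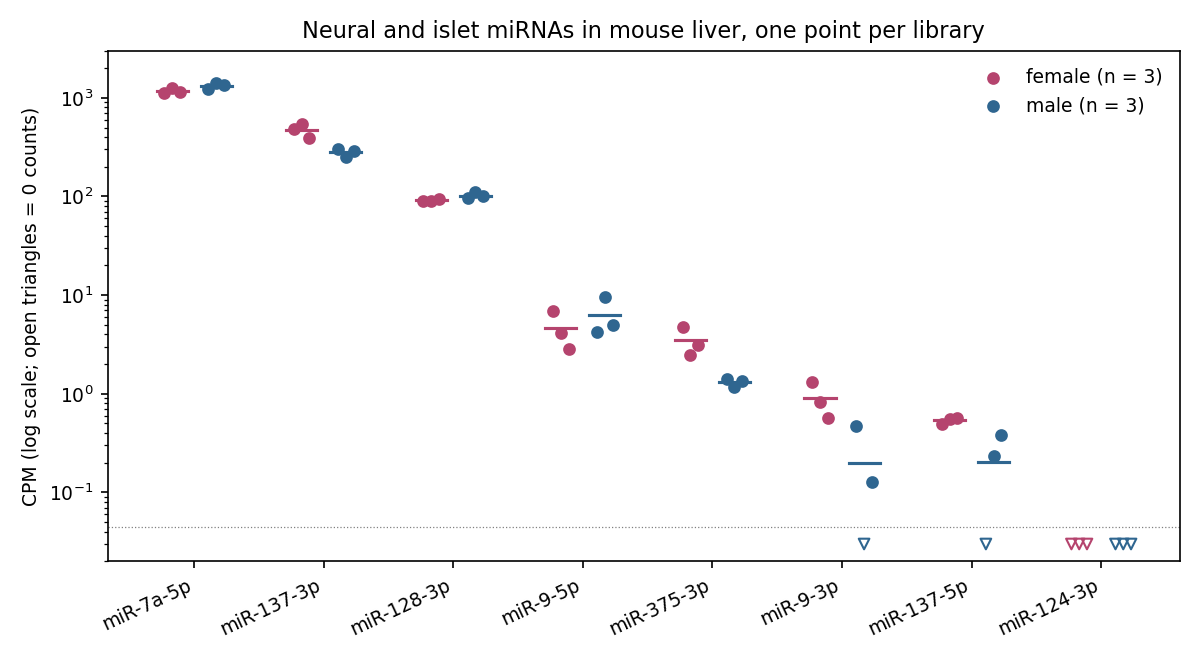
Level of each of the 8 miRNAs in CPM (log scale) against the miRNA, ordered by mean level, with 1 point per library, a bar at the mean of each sex (n = 3) and open triangles below the dotted line for libraries with 0 counts. The top 3, miR-7a-5p, miR-137-3p and miR-128-3p, are separated by gaps, and miR-124-3p is at 0 in all 6 libraries.

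Among all miRNAs, miR-7a-5p held rank 48 to 50 in each library and miR-128-3p rank 112 to 124. The rank of miR-137-3p was 67, 69 and 76 in female libraries and 83, 87 and 81 in male libraries. By mean over all libraries miR-137-3p was number 75, between miR-126b-3p at 376 ± 65.5 CPM and miR-335-5p at 352 ± 62.5 CPM (SD, n = 6). Its share of the counts was 0.0414 to 0.0565% in female libraries and 0.0229 to 0.0297% in male libraries. Counts of miR-122-5p were 575 to 816 times those of miR-137-3p in female libraries and 1137 to 1549 times in male libraries.

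The neuronal miR-124-3p (chr3:17795723-17795742, plus strand, in an intron of Mir124-2hg) had no count in any library. At the depth of a single library, 3 counts, the limit that a count of 0 allows, corresponded to 0.191 to 0.855 CPM, and over all 6 libraries to 0.0760 CPM. Such limits cover counting error only. The other arm, miR-124-5p, had 1 count, in female replicate 1. Leaving aside miR-7a-5p, which is known from both islet and brain, the neural members thus ran from 376 CPM for miR-137-3p to not detectable at this depth for miR-124-3p.

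Both arms of the miR-137 hairpin are in the set, and nearly all of its counts fell on the 3p arm. The hairpin (Mir137, chr3:118433857-118433929, plus strand) lies within an exon of the noncoding transcript Gm26871 in GENCODE M21. It is shown with the mature arms in capitals, the 5p arm first.
Mir137: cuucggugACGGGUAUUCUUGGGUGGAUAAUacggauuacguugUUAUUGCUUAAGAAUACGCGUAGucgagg
The 3p arm, miR-137-3p, had 2900, 1981 and 1361 counts in female libraries and 1908, 1059 and 4525 in male libraries. The 5p arm, miR-137-5p, had 3, 2 and 2 counts in female libraries and 0, 1 and 6 in male libraries. Summed over the libraries this was 13734 against 14 counts, a ratio of 981, so that the 5p arm was 0.102% of both (95% exact binomial interval 0.0557 to 0.171%, counting error only). Of 126 miRNAs named with both arms and at least 1000 counts, 20 had a more uneven pair of arms. The log2 ratio of the larger to the smaller arm, with 0.5 added to each sum, was 9.89 for miR-137, against a median of 6.52 over the 126. The preference for the 3p arm was within the range of the other pairs.

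The partner arms also separate the loci that make the same mature miRNA. Both Mir7-1 (chromosome 13, in an intron of Hnrnpk, a gene for an RNA-binding protein made in most cells) and Mir7-2 (chromosome 7, outside any other annotated gene) give miR-7a-5p, which the table places at chr7:78888295-78888317. Their 3p arms differ at 3 of 22 positions, shown in capitals, so reads of these arms can be assigned to a locus.
miR-7a-1-3p: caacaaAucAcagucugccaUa
miR-7a-2-3p: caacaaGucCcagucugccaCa
The arm of the Hnrnpk intron, miR-7a-1-3p, had 90, 49 and 57 counts in female libraries and 110, 48 and 331 in male libraries. The arm of the chromosome 7 locus, miR-7a-2-3p, had 0, 1 and 0 counts in female libraries and 0, 1 and 0 in male libraries. Of the 687 counts of both, 685 or 99.7% belonged to the Hnrnpk locus (95% exact binomial interval 99.0 to 99.96%). The counts of miR-7a-5p itself cannot be divided between the loci.

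The log2 ratio of miR-7a-1-3p to miR-7a-5p, the only pair of arms here with a mean of at least 5 counts in each, averaged -6.29 ± 0.19 in female libraries and -6.36 ± 0.52 in male libraries (SD, n = 3 each). The difference of 0.07 was smaller than the spread between libraries (exact two-sided permutation test, p = 1.0, where 3 against 3 cannot go below 0.1). It turned to -0.0064 without female replicate 3 and to -0.23 without male replicate 2.

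The near-identical paralog of miR-7a-5p was rare. Over the 23 positions they share, miR-7b-5p (chromosome 17) differs from miR-7a-5p at 1, shown in capitals.
miR-7b-5p: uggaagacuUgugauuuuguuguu
miR-7a-5p: uggaagacuAgugauuuuguugu
It had 3, 3 and 1 counts in female libraries and 1, 2 and 6 in male libraries, 16 of the 50078 counts of both, or 0.0320% (95% exact binomial interval 0.0183 to 0.0519%). The sources used here do not say how reads matching both were assigned, so the count of miR-7b-5p is uncertain.

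The 2 loci of miR-128-3p lie in introns of R3hdm1 on chromosome 1 (Mir128-1) and of Arpp21 on chromosome 9 (Mir128-2). Arpp21 is known as a neuronal gene. Their hairpins carry the same 3p arm and different 5p arms, all in capitals.
Mir128-1: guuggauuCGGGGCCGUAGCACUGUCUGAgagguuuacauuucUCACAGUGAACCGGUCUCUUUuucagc
Mir128-2: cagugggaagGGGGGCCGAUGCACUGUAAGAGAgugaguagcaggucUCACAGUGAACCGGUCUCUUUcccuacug
For miR-128-3p the table holds 3873 counts in all. The 5p arms had 7 counts for miR-128-1-5p and 1 for miR-128-2-5p, so the share of the R3hdm1 locus, 87.5%, had an exact binomial interval of 47.3 to 99.7%. At this depth the share of the Arpp21 locus could not be set.

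The arms of miR-9, made from 3 loci on chromosomes 3, 7 and 13, summed to 213 counts for miR-9-5p and 18 for miR-9-3p, a ratio of 11.8. For miR-375 (chr1:74900661-74900682, minus strand, in no other annotated gene) all 84 counts fell on the 3p arm and none on miR-375-5p, which allows the 5p arm up to 4.30% of the counts (upper bound of the exact binomial interval).

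**Figure D2:**
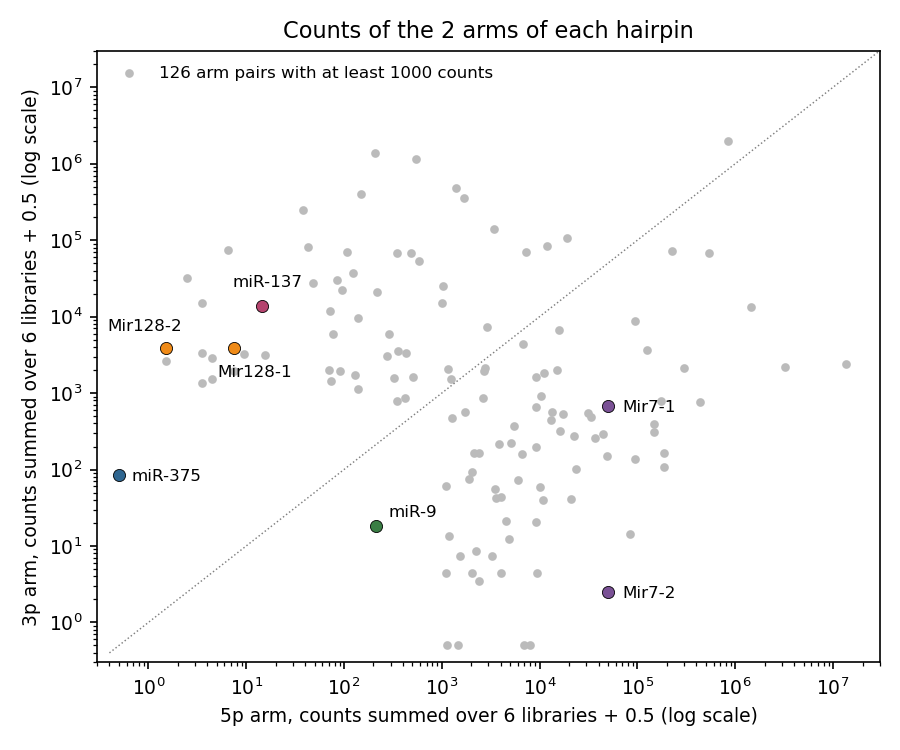
Counts of the 3p arm against the 5p arm, each summed over the 6 libraries with 0.5 added (log scales), with 126 arm pairs of at least 1000 counts in grey and the hairpins of the described miRNAs in colour, where Mir7-1 and Mir7-2 share the counts of miR-7a-5p, and Mir128-1 and Mir128-2 those of miR-128-3p. The dotted line marks equal counts, and miR-137 lies far above it with 13734 counts of the 3p arm and 14 of the 5p arm.

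Of the 8 miRNAs, 5 had enough counts for the comparison of the sexes, and 2 of these passed the threshold. They were miR-137-3p, and miR-375-3p by a margin that most alternatives removed and after a filter it met in the female libraries alone, both higher in females. The other 3, miR-7a-5p, miR-128-3p and miR-9-5p, did not pass. The comparison was made with the quasi-likelihood test of edgeR over 370 miRNAs, and p-values were adjusted over all of them by the Benjamini-Hochberg method with a threshold of 0.05. Of the 370, 6.76% passed in either direction and 3.24% passed as higher in females. The filter on low counts kept out miR-137-5p, miR-9-3p and miR-124-3p.

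The level of miR-137-3p was 479, 548 and 388 CPM in female libraries and 302, 250.0 and 287 CPM in male libraries. The lowest female library lay above the highest male library, as in 10.5% of the tested miRNAs. Means were 472 ± 80.4 CPM in female livers and 280 ± 26.8 CPM in male livers (SD, n = 3 each), a ratio of 1.69. The log2 fold change, female over male, was 0.75 (SE 0.16, 95% interval 0.40 to 1.11, adjusted p = 0.0206 in edgeR). An exact two-sided permutation test on the CPM values gave p = 0.1, the smallest that 3 against 3 allow. Without female replicate 2 the log2 fold change was 0.62 and the adjusted p 0.126 (edgeR), and without male replicate 3 they were 0.77 and 0.057. The call was lost in both of these fits, which have fewer samples, while the direction stayed the same.

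The ratio of miR-137-3p to miR-7a-5p within a library, a measure chosen after the values were seen, needs no scaling between libraries. It includes the difference of miR-137-3p itself and is no independent evidence of it. Counts of miR-7a-5p were 2.32, 2.27 and 2.98 times those of miR-137-3p in female libraries and 4.05, 5.68 and 4.65 times in male libraries. On the log2 scale, miR-137-3p over miR-7a-5p averaged -1.32 ± 0.22 in females and -2.25 ± 0.25 in males (SD, n = 3 each), a difference of 0.92, with p = 0.1 in the exact permutation test, the smallest possible. With any single library left out the difference was 0.79 to 1.05.

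The islet miRNA miR-375-3p had far fewer counts, 29, 9 and 11 in female libraries and 9, 5 and 21 in male libraries, which correspond to 4.79, 2.49 and 3.14 CPM in females and 1.42, 1.18 and 1.33 CPM in males. Every female library lay above every male library, as in 10.5% of the tested miRNAs. The limit of the filter given below holds for this separation too. Means were 3.47 ± 1.19 CPM in female livers and 1.31 ± 0.123 CPM in male livers (SD, n = 3 each). The log2 fold change was 1.43 (SE 0.36, 95% interval 0.65 to 2.22, adjusted p = 0.0438 in edgeR). The call is fragile. The filter asked for about 1.93 CPM of unadjusted library size, which miR-375-3p reached in 3 female and 0 male libraries, so it could enter the test only through the females. With no filter its adjusted p was 0.0816 (edgeR), in the DESeq2 Wald test 0.0716 and in limma-voom 0.0502. With a library left out it was 0.0557 (without male replicate 2) to 0.22 (without female replicate 1), and it passed in none of those 6 fits.

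**Figure D3:**
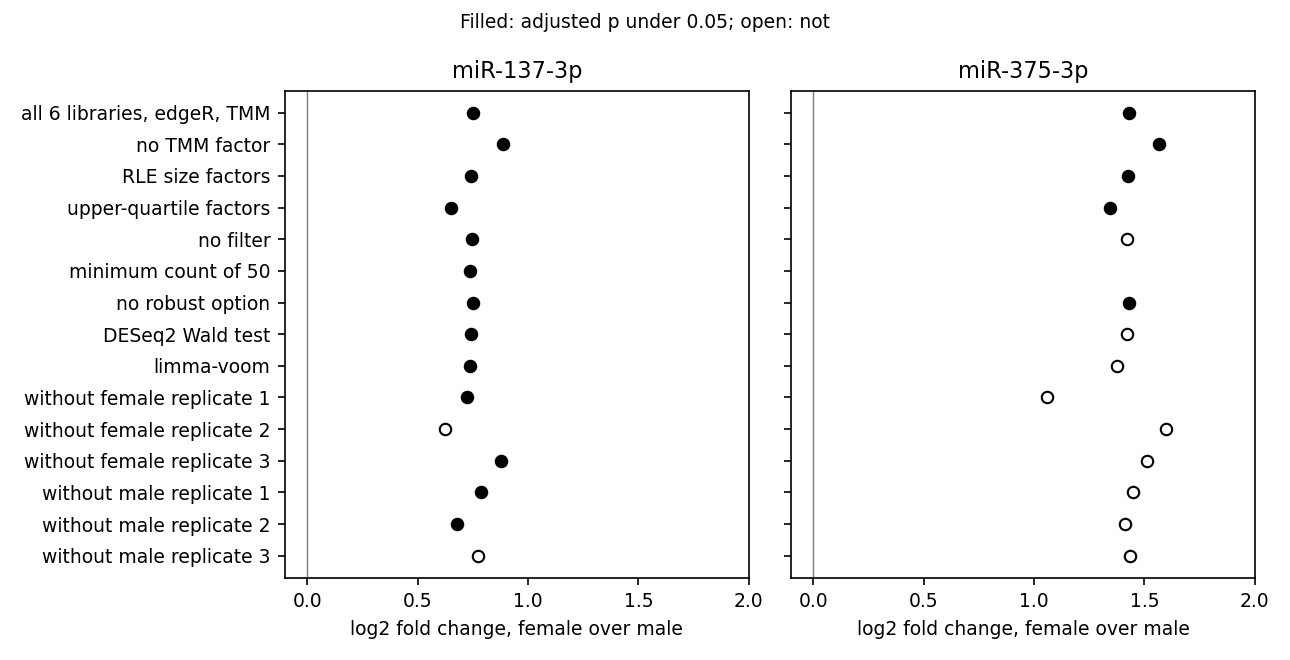
Log2 fold change of miR-137-3p and miR-375-3p, female over male, on the horizontal axis against the processing setting, with filled points where the adjusted p was under 0.05. All values are above 0; miR-137-3p loses its call when female replicate 2 or male replicate 3 is left out, and miR-375-3p without each library in turn and in 3 other settings, and it has no value under the minimum count of 50.

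The most abundant member, miR-7a-5p, stood at 1113, 1245 and 1155 CPM in female libraries and 1222, 1420.2 and 1335 CPM in male libraries, and the groups overlapped. Means were 1171 ± 67.5 CPM in female livers and 1326 ± 99.2 CPM in male livers (SD, n = 3 each). The log2 fold change was -0.18 (SE 0.12, 95% interval -0.44 to 0.08, adjusted p = 0.484 in edgeR). Its partner miR-7a-1-3p had 14.9 ± 1.34 CPM in female livers and 16.6 ± 4.90 CPM in male livers (SD, n = 3 each), with a log2 fold change of -0.18 and an adjusted p of 0.784 (edgeR).

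The level of miR-128-3p varied little, at 91.0, 89.7 and 94.3 CPM in female libraries and 95.6, 109.8 and 101 CPM in male libraries. All female libraries lay below all male libraries, by a small margin. The log2 fold change was -0.16 (SE 0.16, 95% interval -0.51 to 0.20, adjusted p = 0.697 in edgeR). Separate groups were found in 3 of the 5 tested members and in 21.6% of all tested miRNAs, in either direction. Among the 3 was miR-375-3p, which met the filter in the female libraries alone, so no conclusion is drawn from these shares.

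The neural miR-9-5p varied widely within each sex. It had 42, 15 and 10 counts in female libraries and 27, 41 and 78 in male libraries, or 6.94, 4.15 and 2.85 CPM in females and 4.27, 9.68 and 4.95 CPM in males. Male replicate 2 was the highest, and the groups overlapped. The log2 fold change was -0.30 (SE 0.40, 95% interval -1.17 to 0.56, adjusted p = 0.772 in edgeR), and without male replicate 2 it was 0.08. The interval reached well to either side of 0, so a difference was not detectable at this depth and is not bounded closely.

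**Figure D4:**
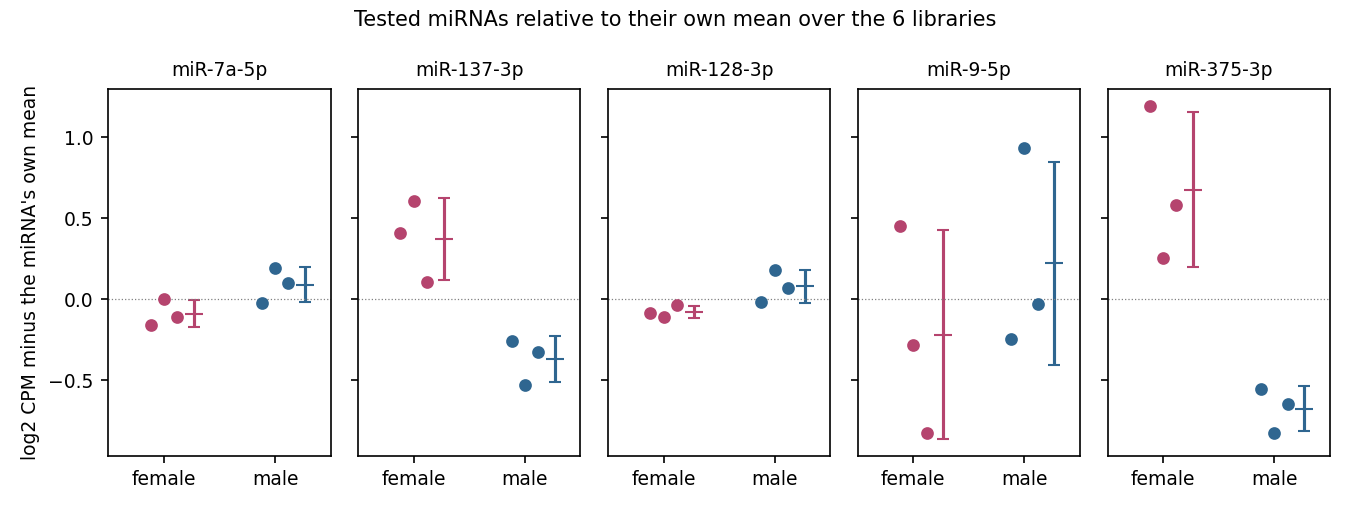
Log2 CPM of the 5 tested miRNAs relative to each miRNA's own mean over the 6 libraries, females left and males right, with 1 point per library and the mean ± SD (n = 3) beside the points. Female and male points are apart for miR-137-3p and miR-375-3p with females above, apart by little for miR-128-3p with females below, and mixed for miR-7a-5p and miR-9-5p.

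Of the other miRNAs known from neurons, none of those tested passed between the sexes. In a list of 18, all were in the table and 9 were tested. The count past the threshold was 0 in edgeR, DESeq2 and limma-voom, 1 had an unadjusted p under 0.05 in edgeR, and 3 of the 9 log2 fold changes were positive (median -0.14, against -0.01 over all tested). The most abundant were miR-125b-5p, at 8190 ± 568 CPM in female livers and 10925 ± 2063 CPM in male livers, and miR-107-3p, at 2149 ± 125 CPM in female livers and 1842 ± 200.1 CPM in male livers (SD, n = 3 each); both are also found in many tissues outside the brain. The female libraries of miR-107-3p all lay above its male libraries, the same direction as miR-137-3p and as in 10.5% of all tested miRNAs. Its log2 fold change of 0.22 did not pass (adjusted p = 0.348, edgeR). The female libraries of miR-125b-5p all lay below its male libraries, with a log2 fold change of -0.42 that did not pass either (adjusted p = 0.0809, edgeR). Separate groups in either direction were found in 21.6% of all tested miRNAs. With upper-quartile scaling miR-125b-5p passed as lower in females (log2 fold change -0.51, adjusted p = 0.0363, edgeR), as it did with no filter and when male replicate 3 was left out. The activity-induced neuronal miR-132-3p stood at 27.3 ± 2.75 CPM in female livers and 30.3 ± 6.08 CPM in male livers, and miR-139-5p at 44.5 ± 1.89 CPM in female livers and 49.9 ± 14.8 CPM in male livers (SD, n = 3 each).

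Of the other islet miRNAs, none of those tested passed either. Of 6 listed, 4 were tested, none passed in edgeR, DESeq2 or limma-voom, none had an unadjusted p under 0.05 in edgeR, and all 4 log2 fold changes were negative (median -0.42). They were miR-182-5p at -0.39, miR-183-5p at -0.58, miR-96-5p at -0.13 and miR-184-3p at -0.46, and the first 3 come from the same cluster. The beta-cell miRNA miR-184-3p stood at 5.60 ± 1.10 CPM in female livers and 7.63 ± 1.60 CPM in male livers (SD, n = 3 each).

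Markers of exocrine pancreas, the tissue around the islets, were at or near 0. The 4 listed, miR-216a-5p, miR-216a-3p, miR-216b-5p and miR-217-5p, summed to 0 to 0.553 CPM in female libraries and 0.318 to 0.944 CPM in male libraries, and none had enough counts for the test. Leukocyte markers had positive log2 fold changes in 4 of 4, where miR-142a-3p and miR-142a-5p are arms of the same hairpin. Of all 370 tested miRNAs, 178 were positive. Of the leukocyte markers 1, the myeloid miR-223-3p, passed at 0.62 (adjusted p = 0.0467, edgeR), with a list median of 0.47. That call was lost in limma-voom, with upper-quartile scaling, with the minimum count of 50 and without female replicate 2, female replicate 3 or male replicate 3. Without male replicate 1, miR-142a-5p passed beside it, at 1.05 (adjusted p = 0.00124, edgeR), against 0.58 with all libraries. Their summed level was 3990 to 4555 CPM in female libraries and 2869 to 4419 CPM in male libraries, and its part in the difference of miR-137-3p or miR-375-3p was not tested. Of 4 erythroid, 2 endothelial, 4 stromal, 6 biliary and other epithelial and 2 muscle markers tested, none passed in edgeR, DESeq2 or limma-voom, and 1, the stromal miR-199a-3p, had an unadjusted p under 0.05 in edgeR. Their median log2 fold changes were 0.18 for erythroid, -0.02 for endothelial, -0.22 for stromal, -0.22 for epithelial and 0.29 for muscle markers. Positive were 4 of 4 erythroid, 1 of 2 endothelial, 0 of 4 stromal, 0 of 6 epithelial and 2 of 2 muscle markers. Among hepatocyte markers, 1 of 5 passed, miR-802-5p, higher in females (4 of 5 log2 fold changes positive, list median 0.17). The defining marker miR-122-5p ran the other way, with every female library below every male library and a log2 fold change of -0.21 (adjusted p = 0.053, edgeR). It passed as lower in females with RLE factors, upper-quartile factors, no robust option and without male replicate 1, where its adjusted p was 0.00763 to 0.0458 (edgeR). Of all tested miRNAs, 21.6% had separate groups in either direction. Other markers with separate groups were miR-802-5p, miR-223-3p and miR-150-5p, with females above, and miR-143-3p and miR-199a-3p, with females below.

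Likeness to each tested member was measured as the root mean square distance over the 6 libraries of log2 CPM centred on each miRNA's mean. The closest to miR-137-3p were miR-376a-3p at 0.13, miR-146b-5p at 0.14 and miR-152-5p at 0.15, where the median of all tested miRNAs was 0.47. Their mean levels were 2.61, 23.7 and 12.9 CPM, against 376 CPM for miR-137-3p, so the match with miR-376a-3p rests on few counts. The closest to miR-375-3p were miR-146b-5p at 0.32, miR-137-3p itself at 0.39 and miR-3105-3p at 0.39, with a median of 0.70. Because miR-375-3p met the filter in the female libraries alone, its nearness to miRNAs higher in females follows in part from the filter. No conclusion is drawn from it. The levels of miR-375-3p and miR-3105-3p were also low, at means of 2.39 and 2.56 CPM. Both miR-7a-5p and miR-128-3p lay nearest to the hepatocyte miRNA miR-122-5p, at 0.05 and 0.03, with a median of 0.30 for each. Next to miR-7a-5p came miR-128-3p at 0.06 and let-7c-5p at 0.07. Next to miR-128-3p came miR-191-5p and let-7a-5p, both at 0.05. The distance is not scaled by spread, so miRNAs that vary little between libraries lie close together. For miR-9-5p the closest were miR-125b-1-3p at 0.17, let-7c-1-3p at 0.24 and miR-125a-5p at 0.27.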

How the data were processed

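Small RNA was sequenced from liver of 3 female and 3 male mice, with a Qiagen library kit per the labels' protocols. The authors deposited estimated counts per mature miRNA, not normalised; the submitters' processing notes name Partek, Bowtie and mm10 without versions. The sources used here do not say how multi-matching reads or molecular identifiers were handled. Of 2045 rows, 138 exact repeats were dropped; counts were rounded. Groups follow the labelled sex; replicate numbers follow accession order and pair no animals. Within each sex, libraries differed beyond counting noise (chi-square per degree of freedom at least 25.3), so no deposited library repeats the counts of another of its sex; this cannot show that they came from different animals. Testing used edgeR 4.0.16 in R 4.3.3 (TMM, filterByExpr with minimum count 10 and minimum total 15, robust quasi-likelihood), with DESeq2 1.42.0, limma 3.58.1, other scalings and filters and leave-one-out fits as alternatives. SEs were derived from the F statistic, and intervals use its degrees of freedom. In simulated data on 379 miRNAs the test called 27 of 32 with 2-fold and 29 of 29 with 4-fold changes, and 0 of 318 unchanged. The simulation gave every miRNA the same dispersion, the spread beyond counting noise, and counted only miRNAs past the filter. Its rates therefore need not hold for the real libraries or for low counts. Members and lists were chosen with earlier results of these data known. Named were the members, up to 4 of each list by level, the neighbours of miR-137-3p in level and the 3 miRNAs most like each tested member; miR-3066-5p and other nearest sequences were found by edit distance.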

Additional observations from a re-analysis of the deposited data

How the results depend on the processing

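The count passing was 25 of 370 miRNAs with all libraries, and 13 of 246 with a minimum count of 50. With a library left out it ran from 9 of 399 (without female replicate 2) to 32 of 378 (without female replicate 1). For miR-137-3p the log2 fold change was 0.65 to 0.89 in the other settings, where it passed throughout, and 0.62 to 0.88 with a library left out. For miR-375-3p it was 1.42 with no filter, 1.42 in DESeq2 and 1.38 in limma-voom, where it did not pass, and 1.06 to 1.60 with a library left out; it had no value under the minimum count of 50, and neither had miR-9-5p. With a library left out, miR-9-5p ranged from -0.79 to 0.078 and the difference in the log2 ratio of miR-7a-1-3p to miR-7a-5p from -0.23 to 0.25. Among the lists, hepatocyte calls became 2 with RLE factors, upper-quartile factors, no robust option and without male replicate 1. The added call was miR-122-5p, lower in females. Stromal calls became 1 with upper-quartile factors (miR-199a-3p) and 1 without male replicate 2 (miR-145a-5p, log2 fold change -0.46, adjusted p = 0.0475, edgeR). Other neural calls became 1, miR-125b-5p, with upper-quartile factors, with no filter and without male replicate 3. Leukocyte calls became 2 without male replicate 1, and 0 in limma-voom and the other settings named with miR-223-3p. The ratio of miR-137-3p to miR-7a-5p and its left-out fits were chosen after seeing the data. The cause of these changes was not tested. Fewer miRNAs entered the fit with a minimum count of 50 (246 against 370). The left-out fits had fewer samples and tested 372 to 400 miRNAs. Depth limits miR-375-3p, miR-9-3p, miR-137-5p and miR-124-3p. No paired analysis was possible because the labels give females and males no shared replicate numbers.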

Other observations

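The split of counts between the arms of miR-9 was looked at after the values were seen. It rests on 18 counts of miR-9-3p in all, below the minimum of 5 counts set for arm ratios. It therefore cannot establish whether the sexes differ and is given as values. The 3p arm was 8 of 50, 3 of 18 and 2 of 12 counts of both arms in female libraries and 3 of 30, 0 of 41 and 2 of 80 in male libraries. As shares these were 16.0%, 16.7% and 16.7% in females and 10%, 0% and 2.50% in males, with means of 16.4 ± 0.385% in female livers and 4.17 ± 5.20% in male livers (SD, n = 3 each). With 3 against 3, the two-sided exact permutation p was 0.1, the lowest possible. The exact binomial intervals of single libraries overlapped, from 2.09 to 48.4% in female replicate 3 and from 2.11 to 26.5% in male replicate 1. Such an overlap is no test of the difference. With no filter on low counts, miR-9-3p had a log2 fold change of 2.18, female over male, and an adjusted p of 0.394 (edgeR).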
